A study of Homo sapiens with 8 samples.

Results

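The genes described here are 40 human genes of mitosis and the G2/M transition, taken by symbol from the rows of the deposited expression tables, where all 40 were present among the 17467 genes shared by the 3 tables. They were read across 4 groups of SUDHL6, an established cell line of diffuse large B-cell lymphoma of the germinal-centre type, with 2 libraries in each group. The MS8815 group received a PROTAC, a molecule that brings EZH2 to a ubiquitin ligase for degradation. The MS8815N group received an analog that the labels call a non-PROTAC control. The EPZ-6438 group received tazemetostat, an inhibitor of the catalytic SET domain of EZH2. The DMSO group received the vehicle. Each compound was given at 2.5 µM and all cells were harvested after 18 h. No allele, sort or further agent is named in the labels, and all libraries came from this 1 line. The labels speak of duplicates without saying that they were separate cultures, so every p-value measures library-to-library spread alone, possibly technical.

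Passage through mitosis is driven by CDK1 bound to A-type and B-type cyclins, and by the kinases PLK1, AURKA and AURKB, which build the spindle and tie chromosomes to it. The spindle checkpoint holds back the anaphase-promoting complex with its activator CDC20 until every kinetochore is attached, after which the central spindle and the contractile ring divide the cell. Transcripts of these genes are low in resting cells and high in G2 and M, under FOXM1, MYBL2 and the MuvB complexes, and germinal-centre lymphoma lines, which divide fast, carry them at high levels. Read counts of the whole culture cannot tell fewer cells in G2 and M apart from less RNA per cell.

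Values are normalised counts, that is, read counts as scaled by the authors between libraries, recovered here from their deposited log2-type values. Estimated depth was 13 and 14.6 M reads in the MS8815 libraries, 34.1 and 30.2 M reads in the MS8815N libraries, 30.4 and 26.0 M reads in the EPZ-6438 libraries and 30.8 to 31.6 M reads in the DMSO libraries. In the upper 50% of genes by level, the libraries of a pair differed by a median of 0.11 on the log2 scale in MS8815, 0.057 in MS8815N, 0.061 in EPZ-6438 and 0.062 in DMSO. The MS8815 libraries stood apart from the other 6 in their cell-type markers. Genes of epithelial cells and fibroblasts (keratins, integrins, matrix genes), which a B-cell line should lack, were called higher in MS8815 for 17 of 19 measured (against 24.5% of all genes). Their summed level over the 17 genes shared by the tables was 70168 and 71531 in the MS8815 libraries, against 4346 and 4099 in the DMSO libraries, with KRT8 at 5183 and 5139 counts in MS8815 and 316 and 303 counts in DMSO. That summed level was 6257 and 5885 in MS8815N and 5503 and 5488 in EPZ-6438. Pan-B genes were present in every library, at a summed level over 14 genes of 93862 and 92860 in MS8815, against 188273 and 189930 in DMSO, with 13 of 14 called lower (against 22.4% of all genes). T and NK markers were low in all 8 libraries, at a summed level of 63.8 to 118 counts over 3 genes, with none of 3 called by limma (0 at an unadjusted p under 0.05). Of 4 myeloid markers, CSF1R had 64.3 and 91.9 counts in MS8815, against 4.67 and 5.33 counts in DMSO, and CD14 had 17.1 and 33.4 counts in MS8815, against 4.56 and 1.49 counts in DMSO, both called higher. The other 2 were not called. LYZ had 223 and 205 counts in MS8815, against 201 and 258 counts in DMSO. ITGAM had 7.09 and 11.7 counts in MS8815, against 0.435 and 5.83 counts in DMSO. Both MS8815 libraries carried the epithelial and fibroblast genes, so no value below can be given without them.

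The 40 genes spanned a wide range of levels in DMSO cells. Per kilobase of annotated exon, CDK1 was the highest at 5607 ± 93.9 counts per kb, followed by PLK1 at 5450 ± 55, PTTG1 (securin, the inhibitor of separase) at 5152 ± 297 and CDC20 at 4895 ± 76.2 counts per kb (SD, n = 2). PLK1 and PTTG1, and likewise PTTG1 and CDC20, differed by less than the sum of their SDs, so their order is not resolved, whereas CDK1 exceeded PLK1 by slightly more than that sum. CDC25C, a phosphatase that activates CDK1, was the lowest at 235 ± 10.5 counts per kb, below KIF23 at 389 ± 16.3 counts per kb in DMSO. In MS8815 cells the order changed for many genes, upwards for some and downwards for others. KIF11 stood at rank 20 of 40 in MS8815 and 13 in DMSO, and PLK1 at rank 6 in MS8815 and 2 in DMSO. ANLN, the contractile-ring scaffold anillin, stood at rank 15 of 40 in MS8815 and rank 36 in DMSO, with 1259 ± 84.4 and 667 ± 22.9 counts per kb. CCNB1 stood at rank 9 in MS8815 and 16 in DMSO, and PRC1 at rank 30 in MS8815 and 38 in DMSO. PTTG1 was the highest of the 40 in MS8815 at 3197 ± 153 counts per kb.

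Setting MS8815 against DMSO addresses how these transcripts stand when the degrader is given. On the authors' scaling, 33 of the 40 genes fell in MS8815 cells, 3 rose and 4 were not called. With libraries rescaled to the pan-B genes, none was called lower and 37 were called higher, as were 13456 of all 18744 genes. Called means an adjusted p under 0.05 in limma, with Benjamini-Hochberg adjustment over all 18744 genes of the table. On the authors' scaling 46.9% of all genes were called in this comparison (22.4% lower and 24.5% higher), so calls were common in the background. Among the upper 50% of genes by level, where all 40 lie, 41.2% were lower. The median log2 fold change of the 40 genes was -0.52, against 0.00 for all genes and -0.19 for the upper 50%, and under pan-B scaling it was 0.52 against 1.02 for all genes. For all 40 genes the 2 MS8815 libraries lay outside the range of the DMSO libraries, which held for 73.7% of all genes. The 2 MS8815 libraries gave similar medians over the 40 genes, -0.55 and -0.50 relative to the DMSO mean, with 37 genes below that mean in each.

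**Figure D1:**
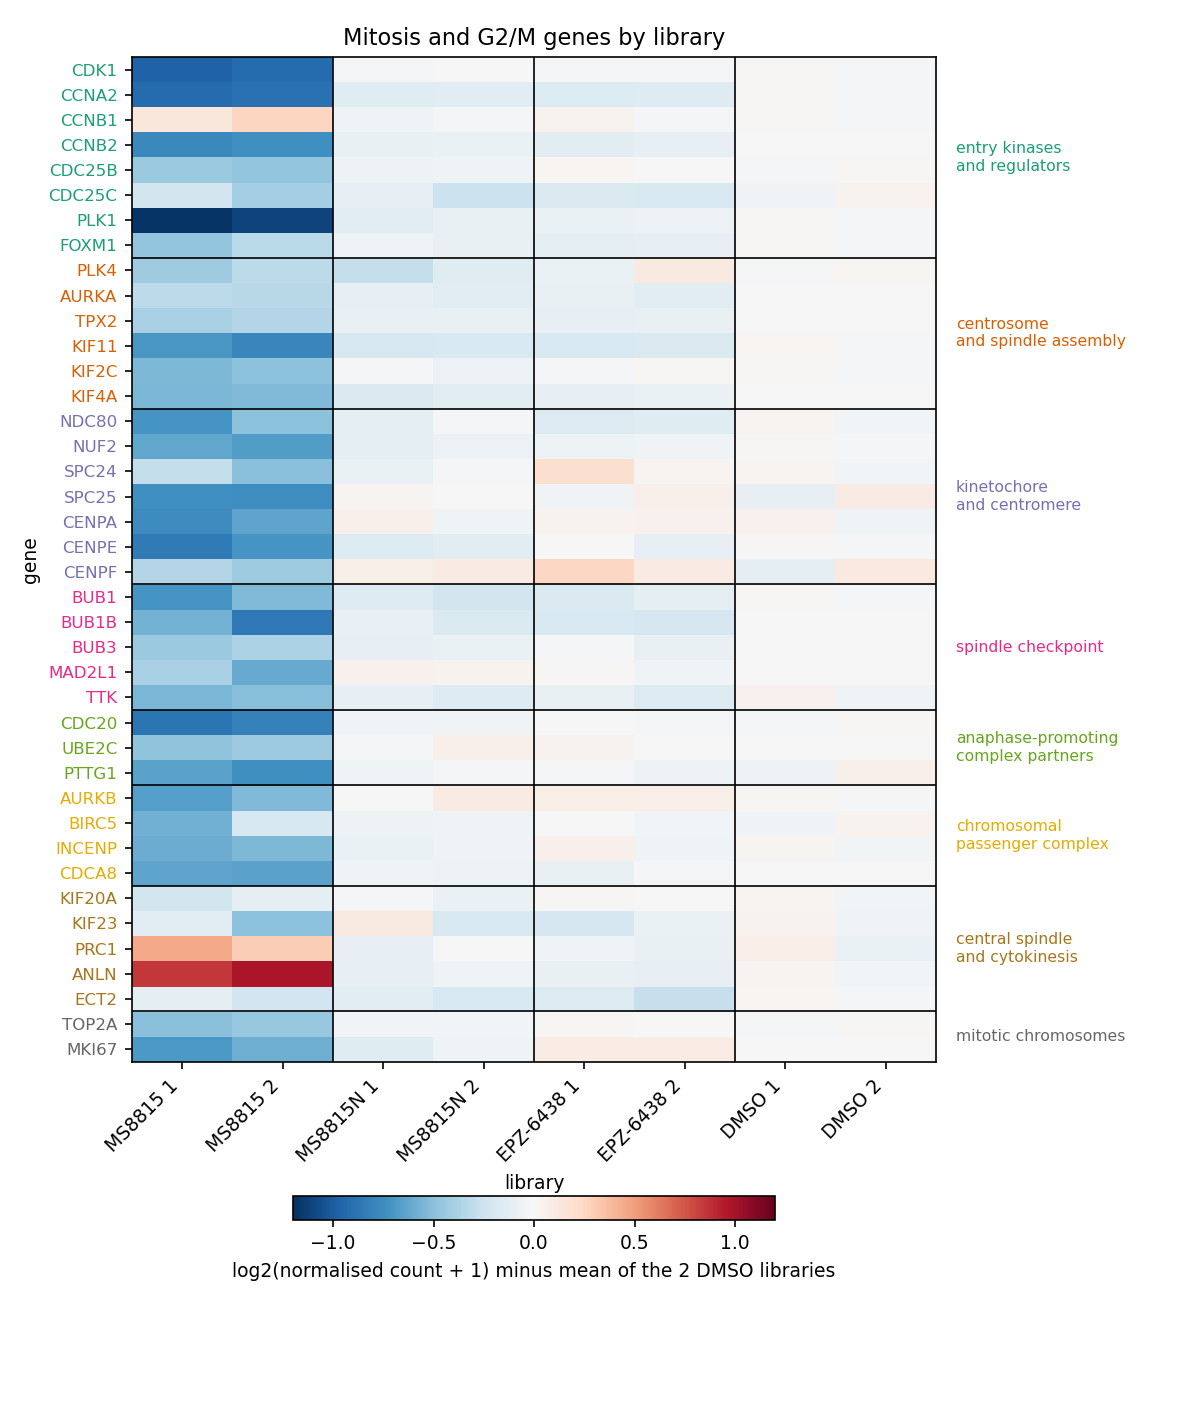
Each row is a gene, grouped by role, and each column a library; colour gives log2(normalised count + 1) minus the mean of the 2 DMSO libraries. Blue cells fill both MS8815 columns except for CCNB1, PRC1 and ANLN, while the MS8815N and EPZ-6438 columns stay pale; the colours are on the authors' scaling, and rescaling to pan-B genes moves 39 of the 40 genes above 0 in MS8815.

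The scaling decides the sign of most of these values, so values on both are given for each role. Pan-B scaling divides each library by the median shift of its pan-B genes. It thus takes those genes as unchanged by MS8815, which was not tested, and it moved the median of all genes from 0.00 to 1.02. Quantile normalisation of the 4 libraries, which shifted the median of all genes to -0.20, left 26 of the 40 genes lower and 3 higher, with a median of -0.31. It split the called genes of the whole table into 3704 higher and 5404 lower, against 4589 higher and 4193 lower on the authors' scaling, and pan-B scaling split them into 13456 higher and 142 lower. The pan-B genes and the 40 mitosis genes were both lower on the authors' scaling in the same libraries in which epithelial and fibroblast genes were higher. Under quantile normalisation 13 of 14 pan-B genes were called lower as well. What part the epithelial and fibroblast genes or the lower depth had in these values was not tested. The labels do not give the library kit of each sample. Without the first DMSO library 24 of the 40 genes were lower and 1 higher, and without the second DMSO library likewise 24 and 1, while the genes called in the whole table came to 3657 and 3583. In these fits of 3 libraries the lone DMSO library is assumed to vary like the MS8815 pair, which alone gives the spread.

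On the authors' scaling the largest falls were in entry kinases and regulators, whereas under pan-B scaling PLK1, CDK1 and CCNA2 moved least of the 40 genes and ANLN and PRC1 most. PLK1 (chr16:23677656-23690367, GENCODE 29 on GRCh38, plus strand), the polo kinase that triggers entry and spindle assembly, had 5380 and 5600 counts in MS8815, against 12223 and 12050 counts in DMSO. Both MS8815 libraries were at less than 50% of either DMSO library. Its log2 fold change was -1.14 ± 0.04 (SE; 95% interval -1.25 to -1.04; limma adjusted p = 1.97e-05), the lowest of the 40, and it was the single gene of the 40 that stayed below 0 under pan-B scaling (-0.10, adjusted p = 0.0849 in limma). CDK1 (chr10:60778331-60794852), the mitotic cyclin-dependent kinase, had 5814 and 6021 counts in MS8815 and 11556 and 11285 counts in DMSO, a log2 fold change of -0.95 ± 0.04 (SE) on the authors' scaling and 0.10 under pan-B scaling. CCNA2, the cyclin of S and G2, had 4751 and 4857 counts in MS8815, against 9122 and 8939 counts in DMSO, a log2 fold change of -0.91 ± 0.04 (SE) on the authors' scaling and 0.14 under pan-B scaling. In all of these genes the groups were far apart compared with the gap between the libraries of a pair.

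The B-type cyclins, which share CDK1 as partner, went in opposite directions on the authors' scaling, whereas both were above 0 under pan-B scaling. CCNB2 had 2386 and 2462 counts in MS8815 and 4103 and 4079 counts in DMSO, a log2 fold change of -0.75 ± 0.06 (SE; limma adjusted p = 0.000188) on the authors' scaling and 0.29 under pan-B scaling. CCNB1 had 4164 and 4552 counts in MS8815, against 3821 and 3770 counts in DMSO, and rose by 0.20 ± 0.06 on the log2 scale (SE; 95% interval 0.04 to 0.35; limma adjusted p = 0.0419). CCNB1 was above 0 under quantile normalisation (0.44) and under pan-B scaling (1.25) as well. Its call did not hold with either DMSO library left out (limma adjusted p = 0.213 and 0.229), nor without the second MS8815 library (adjusted p = 0.0725). CDC25B, an activating phosphatase of CDK1, fell by 0.46 ± 0.05 (SE) on the authors' scaling and was at 0.59 under pan-B scaling. Its partner CDC25C had 519 and 456 counts in MS8815 and 585 and 623 counts in DMSO and was not called (-0.31, 95% interval -0.62 to 0.00; limma adjusted p = 0.1). CDC25C was called lower under quantile normalisation (-0.67; adjusted p = 0.0132 in limma) and in the fit over all 8 libraries (adjusted p = 0.0399), and was at 0.73 under pan-B scaling. FOXM1, the transcription factor of the G2/M programme, was at -0.40 ± 0.06 (SE), and its call was lost under quantile normalisation, where it was at -0.10.

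All 6 genes of the centrosome and spindle were called lower on the authors' scaling, with log2 fold changes of -0.74 to -0.32, and all 6 were above 0 under pan-B scaling (0.31 to 0.72). KIF11 (Eg5, the motor that separates the poles) had 5491 and 5186 counts in MS8815, against 9064 and 8762 counts in DMSO, a log2 fold change of -0.74 ± 0.05 (SE; limma adjusted p = 0.000121). The kinase PLK4, which starts centriole duplication and is the relative of PLK1 in this role, had 1605 and 1738 counts in MS8815 and 2121 and 2193 counts in DMSO. Its log2 fold change of -0.37 ± 0.08 (SE) was smaller than that of PLK1, and its call was lost under quantile normalisation (-0.23). AURKA at -0.32 ± 0.05 and its activator TPX2 at -0.37 ± 0.04 (SE) were called on the authors' scaling, and were at -0.10 and -0.04 under quantile normalisation without a call. The motors KIF2C and KIF4A stood at -0.52 and -0.54 on the authors' scaling.

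All 7 kinetochore and centromere genes were lower on the authors' scaling (-0.78 to -0.39), and all 7 were higher under pan-B scaling (0.27 to 0.66). The deepest was CENPE, a kinetochore motor that moves chromosomes to the spindle equator, at -0.78 ± 0.06 (SE). The 4 subunits of the NDC80 complex, which binds microtubule ends, were at -0.60 for NDC80, -0.64 for NUF2, -0.39 for SPC24 and -0.74 for SPC25. CENPA, the histone variant of centromeres, was at -0.69 ± 0.09 (SE). Of the 5 checkpoint genes all were called lower on the authors' scaling, with BUB1B (BubR1) deepest at -0.71 and BUB3 least at -0.41, and all were above 0 under pan-B scaling (0.33 to 0.63). BUB1B had 4616 and 3772 counts in the MS8815 libraries, the widest gap within that group among the checkpoint genes.

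The partners of the anaphase-promoting complex and the chromosomal passenger complex followed the same pattern. CDC20 had 4865 and 5108 counts in MS8815, against 8854 and 9052 counts in DMSO, a log2 fold change of -0.84 ± 0.05 (SE; limma adjusted p = 7.09e-05) on the authors' scaling and 0.20 under pan-B scaling. Securin (PTTG1) was at -0.69 and the ubiquitin-conjugating enzyme UBE2C at -0.46. All 4 subunits of the passenger complex, which corrects wrong attachments, were called lower: CDCA8 at -0.64, AURKB at -0.59, INCENP at -0.57 and BIRC5 (survivin) at -0.39, against 0.41 to 0.66 under pan-B scaling. BIRC5 was the least firm of them, with 4154 and 5422 counts in MS8815 and 6010 and 6397 counts in DMSO (limma adjusted p = 0.0436), and its call was lost with either DMSO library or the first MS8815 library left out. The 2 genes of mitotic chromosomes were among the most abundant. The proliferation antigen MKI67 had 16695 and 17997 counts in MS8815, against 26980 and 26934 counts in DMSO (log2 fold change -0.64 ± 0.04, SE). Topoisomerase TOP2A had 15077 and 15604 counts in MS8815 and 21057 and 21610 counts in DMSO (-0.48 ± 0.04, SE), and under pan-B scaling MKI67 and TOP2A were at 0.41 and 0.57.

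**Figure D2:**
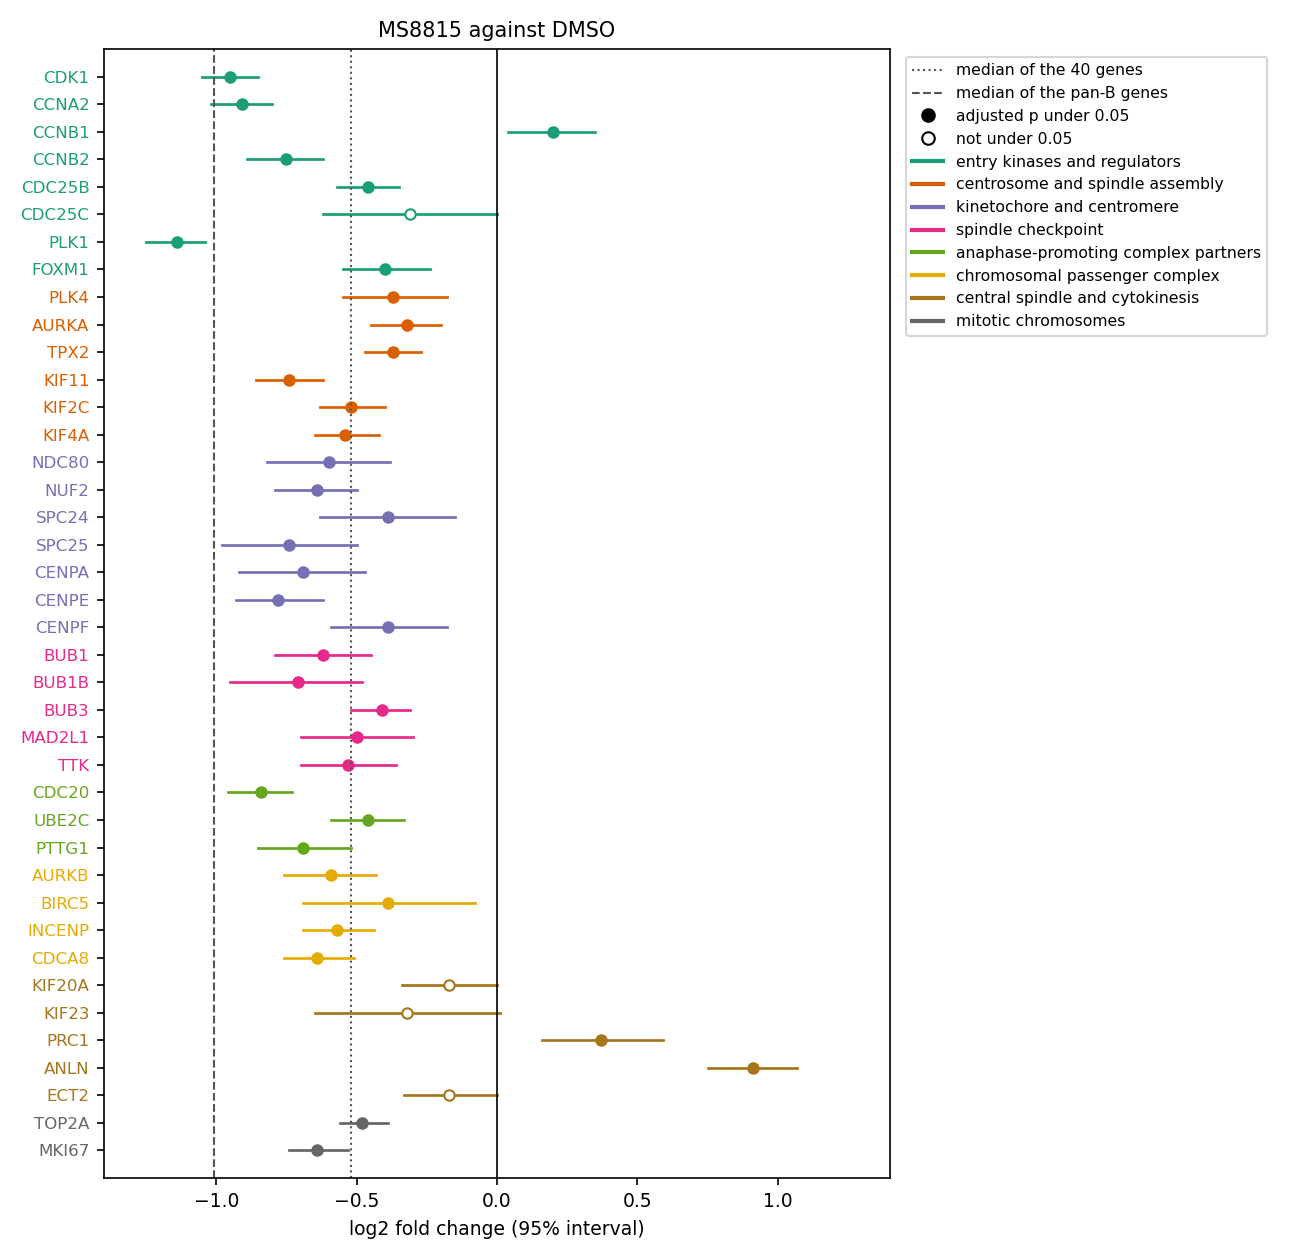
Points are log2 fold changes of MS8815 against DMSO with 95% intervals (2 libraries a group), filled where the adjusted p was under 0.05 and coloured by role; the dotted line is the median of the 40 genes (-0.52) and the dashed line that of the pan-B genes (-1.01). ANLN, PRC1 and CCNB1 lie right of 0, and PLK1 alone lies left of the pan-B line, close to where 0 would fall under pan-B scaling.

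Of the 5 central spindle and cytokinesis genes, none was called lower and 2 were called higher on the authors' scaling, whereas all 5 were called higher under pan-B scaling (0.73 to 1.96), as were most genes of the other roles. ANLN (chr7:36389806-36453791) had 5740 and 6311 counts in MS8815, against 3272 and 3117 counts in DMSO. It rose by 0.91 ± 0.07 on the log2 scale (SE; 95% interval 0.75 to 1.07; limma adjusted p = 0.000215), and was above 0 under quantile normalisation (1.16) and pan-B scaling (1.96). PRC1 (chr15:90966038-90995629), which bundles the central spindle, had 3050 and 2721 counts in MS8815 and 2354 and 2097 counts in DMSO. It rose by 0.37 ± 0.09 (SE; limma adjusted p = 0.0165), a call that was lost without either DMSO library (adjusted p = 0.0843 and 0.168 in limma) or the first MS8815 library (0.0907). PRC1 was at 0.56 under quantile normalisation and at 1.42 under pan-B scaling. The mitotic kinesins KIF20A and KIF23 and the RhoA activator ECT2 were not called, at -0.17 (95% interval -0.34 to 0.00), -0.32 (-0.65 to 0.01) and -0.17 (-0.33 to 0.00). In the fit over all 8 libraries KIF20A and ECT2 were called lower (adjusted p = 0.0351 and 0.0466 in limma) at the same values. That fit, which also gave the call of CDC25C, takes 1 spread for all groups, although the MS8815 libraries differed more from each other than those of other pairs. Under pan-B scaling the 3 genes were at 0.88 for KIF20A, 0.73 for KIF23 and 0.88 for ECT2. Summed over the 5 genes of this role, the level was 15311 and 15189 counts in MS8815, against 13027 and 12313 counts in DMSO. ANLN was the largest of the 5 in MS8815, and 3 of the 5 had estimates below 0, so the higher sum does not hold for each gene. The difference between this role and the others was not tested. The rise of ANLN, PRC1 and CCNB1 occurred in the libraries that also carried the epithelial and fibroblast genes at 70168 and 71531 counts, and the part of those transcripts in it was not tested.

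**Figure D3:**
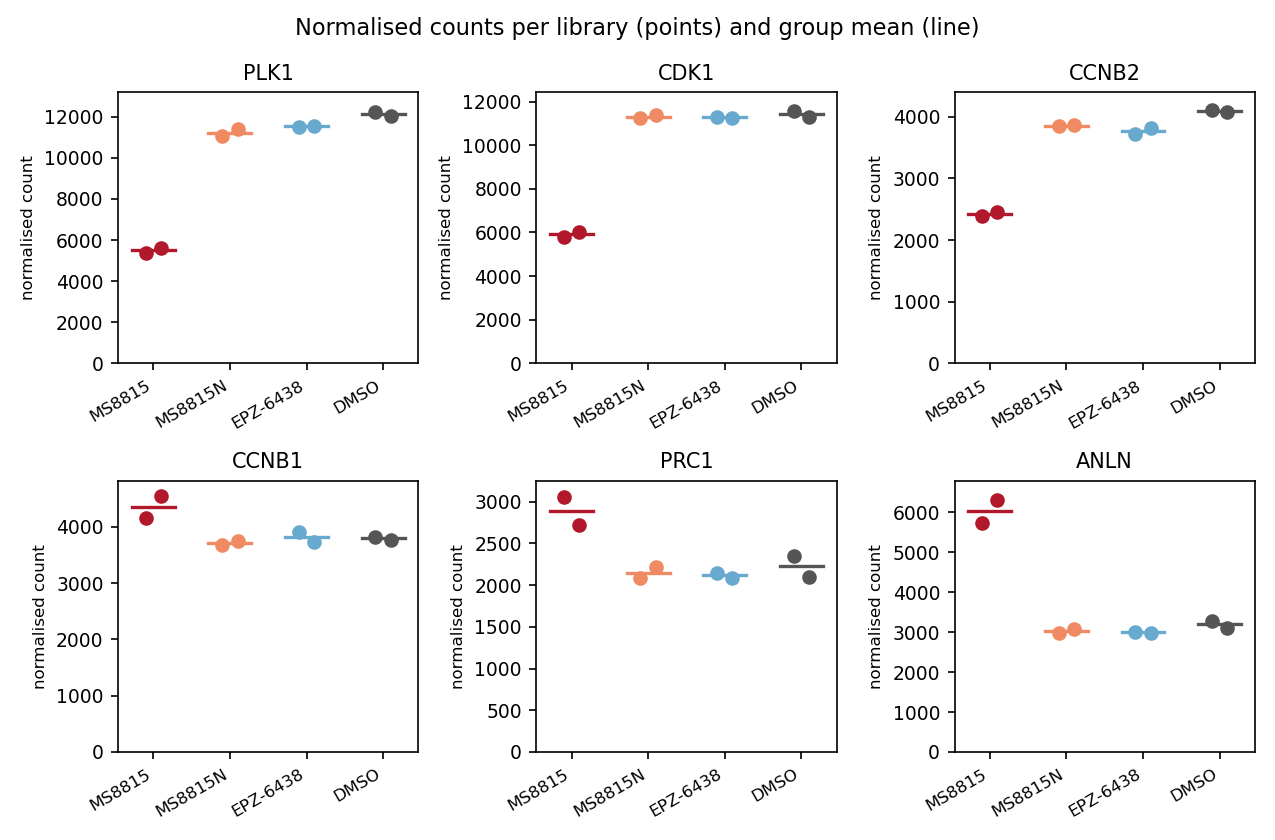
Normalised counts of 6 genes in each library (points) with the group mean (line), on axes that start at 0. PLK1, CDK1 and CCNB2 are lower in the 2 MS8815 libraries than in the other 6, whereas CCNB1, PRC1 and ANLN are higher; under pan-B scaling CDK1 and CCNB2 also turn to above 0 against DMSO.

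The promoters of 5 genes are shown, PLK1 and CCNB2, which were called lower on the authors' scaling, and CCNB1, PRC1 and ANLN, which were called higher, because they let the opposite directions be set beside the known G2/M promoter letters. Each line gives the 200 bases before the RefSeq start (GRCh38.p14), 5′ to 3′ on the strand of the gene. Capitals mark the cell-cycle homology region (CHR), spelled TTTGAA or TTCGAA, the CCAAT box (CCAAT) and E2F-like letters (TTCCCGC or TTCGCGC or TTGGCGC), each searched on both strands. The windows are chr16:23678689-23678888 for PLK1, chr15:59104946-59105145 for CCNB2, chr5:69166950-69167149 for CCNB1, chr15:90994536-90994735 (minus strand) for PRC1 and chr7:36389662-36389861 for ANLN.
PLK1: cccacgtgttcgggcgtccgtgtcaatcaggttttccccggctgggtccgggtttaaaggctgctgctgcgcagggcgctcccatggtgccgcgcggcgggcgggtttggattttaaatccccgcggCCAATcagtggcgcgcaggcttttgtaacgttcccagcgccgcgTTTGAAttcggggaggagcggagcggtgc
CCNB2: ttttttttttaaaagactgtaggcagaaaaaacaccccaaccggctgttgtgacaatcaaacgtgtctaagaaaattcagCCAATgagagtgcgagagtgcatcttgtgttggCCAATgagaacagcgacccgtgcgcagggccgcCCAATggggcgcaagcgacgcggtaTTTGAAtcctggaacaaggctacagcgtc
CCNB1: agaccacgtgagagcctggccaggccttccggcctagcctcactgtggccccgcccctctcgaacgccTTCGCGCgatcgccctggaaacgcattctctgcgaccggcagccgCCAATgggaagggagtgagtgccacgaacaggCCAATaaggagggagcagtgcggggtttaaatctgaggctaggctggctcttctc
PRC1: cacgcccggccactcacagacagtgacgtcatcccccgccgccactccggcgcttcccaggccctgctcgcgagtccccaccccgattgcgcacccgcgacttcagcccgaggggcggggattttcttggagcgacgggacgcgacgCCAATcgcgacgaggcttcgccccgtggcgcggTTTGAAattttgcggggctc
ANLN: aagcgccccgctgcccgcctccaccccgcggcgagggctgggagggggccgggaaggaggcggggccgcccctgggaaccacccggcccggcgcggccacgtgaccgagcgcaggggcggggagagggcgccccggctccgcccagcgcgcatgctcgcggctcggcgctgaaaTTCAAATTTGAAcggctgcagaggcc
PLK1 has a CCAAT box that begins at -73 and a CHR at -29, counted from the start. CCNB2 has CCAAT boxes at -120, -87 and -54 within the printed stretch and a CHR at -29. The CCNB1 stretch has E2F-like letters at -132, CCAAT boxes at -87 and -55 and no CHR of these letters. PRC1 has a CCAAT box at -53 and a CHR at -20. ANLN has the CHR letters on the minus strand at -26 and on the plus strand at -20, the 2 copies side by side, and no CCAAT box. The CHR letters were thus present in PRC1 and ANLN, called higher, as well as in PLK1 and CCNB2, called lower.

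Of the 40 genes, 33 had promoter entries, taken from 250 bases before to 50 bases after each RefSeq start, and a gene was counted where any of its starts held the letters. The CHR letters were present in 25 of 33 (75.8%), against 16% of 11540 genes in the deposited tables and 19.5% of all 27305 genes with an entry. A CCAAT box was present in 27 of 33 (81.8%), against 42.9% of the tabled genes and 39.7% of all. E2F-like letters were present in 9 of 33 (27.3%), against 20.7% of the tabled genes and 13.1% of all. Both CHR and CCAAT lay in the same window for 20 of 33 (60.6%), against 6.64% of the tabled genes. FOXM1, AURKA, TPX2, BUB3, TTK, UBE2C and BIRC5 had no entry. Such matches describe letters and not binding.

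**Figure D4:**
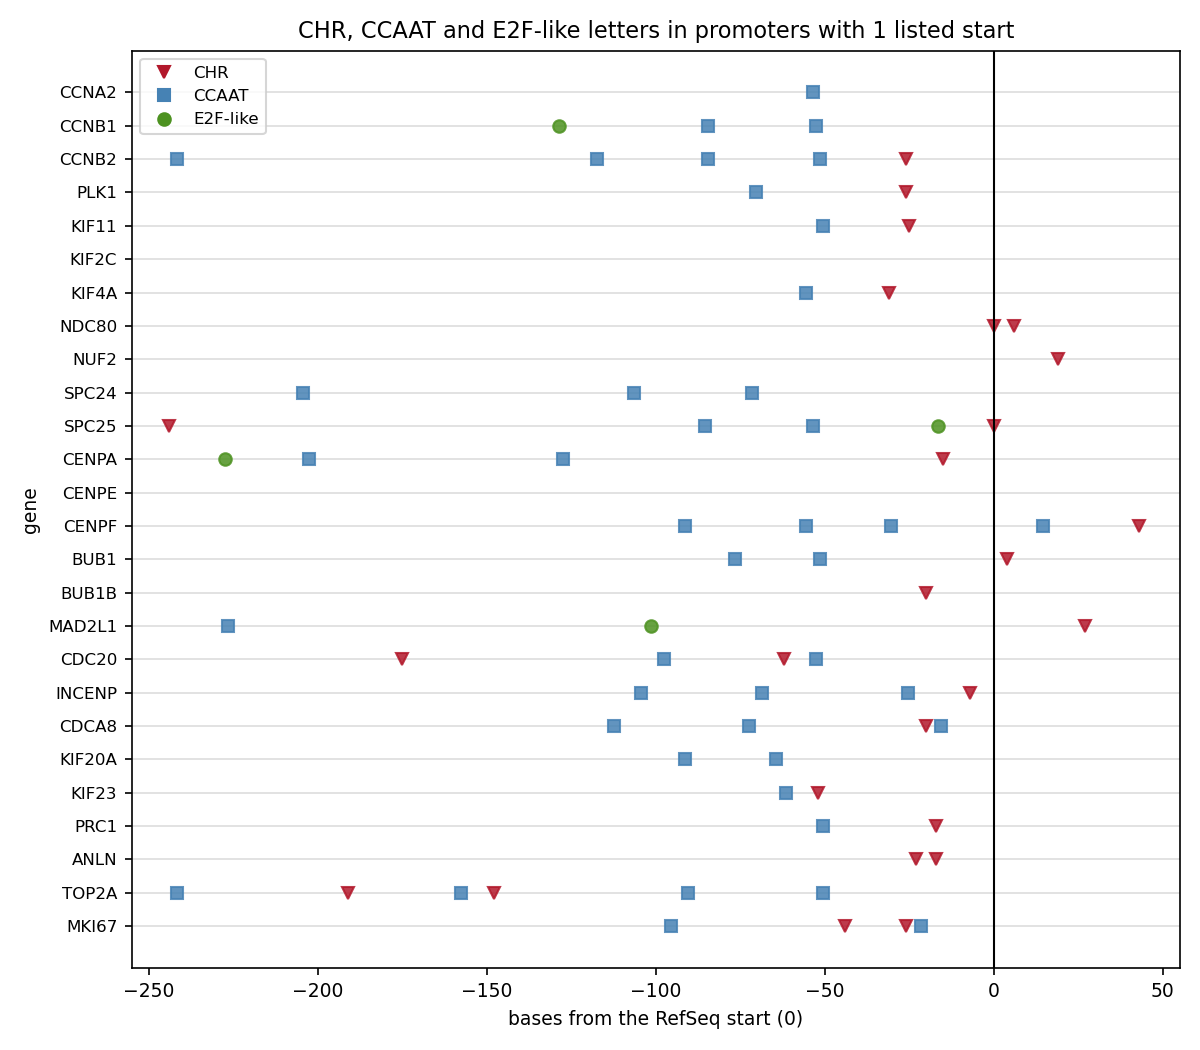
Positions of CHR (red triangles), CCAAT (blue squares) and E2F-like letters (green circles) in the promoters of the 26 genes with 1 listed RefSeq start, in bases from that start at 0. Of the 20 genes with CHR letters, 13 have one that begins within 50 bases before the start, and most CCAAT boxes lie upstream of the start.

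Other genes of mitosis moved with the 40. Of 122 further genes of the anaphase-promoting complex, kinetochores, condensin and cohesin, spindle and entry or exit control, 87 were called lower in MS8815 and 3 higher, with a median of -0.48, whereas pan-B scaling gave 1 lower and 111 higher with a median of 0.56, against 1.02 for all genes. Of all genes 22.4% were called lower on the authors' scaling, and 41.2% of the upper 50% by level. Pan-B scaling called 13456 of all 18744 genes higher. The lower ones among the 122 were spread over the lists: 12 of 17 subunits and partners of the anaphase-promoting complex, 21 of 31 kinetochore genes, 15 of 18 condensin and cohesin genes, 20 of 26 spindle and cytokinesis genes and 19 of 30 regulators. MYBL2, the B-Myb factor that activates G2/M genes with MuvB, had 10867 and 10730 counts in MS8815, against 22371 and 22642 counts in DMSO (log2 fold change -1.06 ± 0.03, SE), and was at -0.01 under pan-B scaling. HMMR, a spindle-pole protein, had 2189 and 2608 counts in MS8815 and 6474 and 6282 counts in DMSO (-1.42 ± 0.09, SE), and was the one gene of the 122 called lower under pan-B scaling. The cohesin subunit SMC1A was at -0.78 and UBE2S, which extends ubiquitin chains on the anaphase-promoting complex, at -0.71, and under pan-B scaling SMC1A was at 0.27 and UBE2S at 0.33. Citron kinase (CIT), a partner of anillin in the contractile ring, was higher at 0.39 ± 0.09 (SE; limma adjusted p = 0.0147). CDC14B and CCNA1 were also higher, at low levels, with 316 and 73 counts on average in MS8815 against 34.2 and 5.09 counts in DMSO. Genes of DNA replication and G1/S were lower for 26 of 30 with a median of -0.56, and 25 of 30 were higher under pan-B scaling, beside the shares of all genes given above. PCNA, the replication clamp, was at -0.77 and MCM5 at -0.64, and under pan-B scaling PCNA was at 0.28 and MCM5 at 0.41. The median of the 40 mitosis genes was -0.52 beside that -0.56, and the difference between the lists was not tested.

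The compounds were given at a matched dose and time, and were compared with each other in 3 pairs by limma over all 8 libraries, adjusted within each pair over 17467 genes. These comparisons leave out the DMSO libraries from the contrast, but take 1 spread from all 4 groups. In the upper 50% of genes the MS8815 pair differed by a median of 0.11, against 0.057 to 0.062 in the other pairs. Intervals and adjusted p-values for MS8815 may thus be too small. MS8815 against its non-PROTAC analog MS8815N gave 32 of the 40 genes lower and 3 higher, with 50.6% of all genes called (26.3% lower and 24.2% higher), and pan-B scaling turned this to none lower and 39 higher. That scaling called 13385 of all 17467 genes higher. The median of the 40 was -0.47, against -0.05 for all genes, and under pan-B scaling 0.54, against 0.95 for all genes. PLK1 had 5380 and 5600 counts in MS8815, against 11057 and 11378 counts in MS8815N, a log2 difference of -1.03 (95% interval -1.10 to -0.96; limma adjusted p = 1.5e-07) on the authors' scaling and -0.01 under pan-B scaling. ANLN had 5740 and 6311 counts in MS8815 and 2980 and 3074 counts in MS8815N, a difference of 0.99 (0.86 to 1.12) on the authors' scaling and 2.01 under pan-B scaling. PRC1 was at 0.43 (0.24 to 0.61) and CCNB1 at 0.23 (0.11 to 0.35), both called higher. Not called were CDC25C (-0.13, -0.38 to 0.12), PLK4 (-0.15, -0.34 to 0.04), KIF20A (-0.11, -0.24 to 0.02), KIF23 (-0.28, -0.59 to 0.03) and ECT2 (-0.01, -0.14 to 0.13), and all 5 were called higher under pan-B scaling (0.73 to 1.01). CDC25C was called lower against MS8815N under quantile normalisation (-0.55; adjusted p = 0.00559 in limma).

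MS8815 against EPZ-6438 gave 34 of the 40 genes lower and 3 higher, with 50.6% of all genes called (26.3% lower and 24.2% higher), a median of -0.48 against -0.05 for all genes, and a median of 0.58 under pan-B scaling, where none was lower and 39 were higher. Pan-B scaling called 13416 of all 17467 genes higher here, with a median of 0.99 for all genes. PLK1 differed by -1.07 ± 0.03 (SE), with 5380 and 5600 counts in MS8815 and 11511 and 11537 counts in EPZ-6438, and was at -0.01 under pan-B scaling. CDK1 differed by -0.93 ± 0.03 (SE), with 5814 and 6021 counts in MS8815 and 11281 and 11265 counts in EPZ-6438, and was at 0.13 under pan-B scaling. ANLN differed by 1.01 (95% interval 0.88 to 1.13), with 5740 and 6311 counts in MS8815 and 3008 and 2985 counts in EPZ-6438. Relative to EPZ-6438, KIF20A was called lower (-0.17, -0.31 to -0.04; limma adjusted p = 0.0318), a call that was lost under quantile normalisation (-0.06) and turned to 0.88 under pan-B scaling. CDC25C, KIF23 and ECT2 were not called on the authors' scaling; under quantile normalisation CDC25C was called lower (-0.54) and ECT2 higher (0.21), and all 3 were called higher under pan-B scaling (0.88 to 1.12). The same epithelial and fibroblast genes were 3.50 higher in the median on the log2 scale in MS8815 than in MS8815N and 3.68 higher than in EPZ-6438, and their part in these differences was not tested.

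MS8815N against DMSO addresses the analog that is no PROTAC. None of the 40 was called, with 0.533% of all genes called, and 14 had an unadjusted p under 0.05, as had 2894 of all 18398 genes and 2166 of the 9199 genes in the upper 50% by level. For 27 of the 40 both MS8815N libraries lay below both DMSO libraries, and for 1 above, where 23.2% of all genes lay below (3194 of the 9199 in the upper 50%). The median of the 40 was -0.07, against 0.00 for all genes, and -0.01 under quantile normalisation and -0.04 under pan-B scaling. The smallest p belonged to KIF11, with 7790 and 7854 counts in MS8815N, against 9064 and 8762 counts in DMSO, a log2 fold change of -0.19 (95% interval -0.26 to -0.11; limma adjusted p = 0.0667). BUB1 had 5109 and 4888 counts in MS8815N and 5748 and 5621 counts in DMSO (-0.19, -0.28 to -0.09; adjusted p = 0.0873). In both genes the libraries of the 2 groups did not overlap. KIF4A had 5680 and 5838 counts in MS8815N, against 6384 and 6400 counts in DMSO (-0.15, -0.23 to -0.07). CCNA2 had 8169 and 8297 counts in MS8815N and 9122 and 8939 counts in DMSO (-0.13, -0.20 to -0.06). CENPE had 5367 and 5503 counts in MS8815N and 6046 and 5954 counts in DMSO (-0.14, -0.22 to -0.06). For KIF11, BUB1, KIF4A, CCNA2 and CENPE the differences were small against those of MS8815 and kept to 1 side of the DMSO libraries. PLK1 had 11057 and 11378 counts in MS8815N, against 12223 and 12050 counts in DMSO (-0.11, -0.18 to -0.05), and its relative PLK4 had 1765 and 1950 counts in MS8815N and 2121 and 2193 counts in DMSO (-0.22, -0.37 to -0.07). ECT2 had 2959 and 2871 counts in MS8815N and 3315 and 3202 counts in DMSO (-0.16, -0.27 to -0.05). With 3030 and 2782 counts of ECT2 in MS8815, its difference from DMSO there was of similar size. The partners BUB1B (6446 and 6056 counts in MS8815N, 6825 and 6875 in DMSO) and BUB3 (9652 and 9783 counts in MS8815N, 10292 and 10340 in DMSO) were at -0.13 and -0.09. CDK1 was at -0.01 (-0.08 to 0.05) and ANLN at -0.08 (-0.19 to 0.03). KIF11 and BUB1 passed the threshold when the lower 50% of genes by level were removed before the fit. Of the 122 further mitosis genes, SMC1A (-0.22) and ARPP19 (-0.26), an inhibitor of the phosphatase PP2A, were called lower.

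EPZ-6438 against DMSO asks what blocking the catalytic domain does. None of the 40 was called, where 0.0328% of all genes were, and 13 had an unadjusted p under 0.05, as had 3076 of all 18320 genes and 2263 of the 9160 genes in the upper 50% by level. For 20 of the 40 both EPZ-6438 libraries lay below both DMSO libraries, and for 2 above, where 23.8% of all genes lay below (3402 of the 9160 in the upper 50%). The median of the 40 was -0.05, against 0.01 for all genes, and turned to 0.01 under quantile normalisation. The checkpoint gene BUB1B had 6044 and 5967 counts in EPZ-6438, against 6825 and 6875 counts in DMSO. Its log2 fold change was -0.19 (95% interval -0.27 to -0.11, limma adjusted p = 0.0808). KIF11 had 7860 and 7889 counts in EPZ-6438 and 9064 and 8762 counts in DMSO (-0.18, -0.25 to -0.10), and CCNA2 had 8064 and 8109 counts in EPZ-6438 and 9122 and 8939 counts in DMSO (-0.16, -0.23 to -0.09). For these 3 genes both EPZ-6438 libraries were below both DMSO libraries, and all 3 passed the threshold when the lower 50% of genes by level were removed. MKI67 went the other way, with 28613 and 28728 counts in EPZ-6438, against 26980 and 26934 counts in DMSO (0.09, 0.04 to 0.13; adjusted p = 0.122 in limma). ECT2 had 2898 and 2694 counts in EPZ-6438 and 3315 and 3202 counts in DMSO (-0.22, -0.35 to -0.10). BUB1 had 5030 and 5246 counts in EPZ-6438, against 5748 and 5621 counts in DMSO (-0.15, -0.24 to -0.05), and BUB3 had 10241 and 9692 counts in EPZ-6438, against 10292 and 10340 counts in DMSO (-0.05, -0.13 to 0.03). TPX2 had 10097 and 10126 counts in EPZ-6438 and 10737 and 10846 counts in DMSO (-0.09, -0.16 to -0.03). FOXM1 had 5584 and 5669 counts in EPZ-6438, against 6144 and 6002 counts in DMSO (-0.11, -0.19 to -0.03). None of the adjusted p-values of these genes was under 0.05. The comparisons of MS8815N and EPZ-6438 with DMSO share the same 2 DMSO libraries, and no overlap between them was counted. Epithelial and fibroblast genes had a median of 0.43 on the log2 scale against DMSO in EPZ-6438 and 0.53 in MS8815N, with 0 and 1 of 17 called by limma (9 and 13 at an unadjusted p under 0.05).

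**Figure D5:**
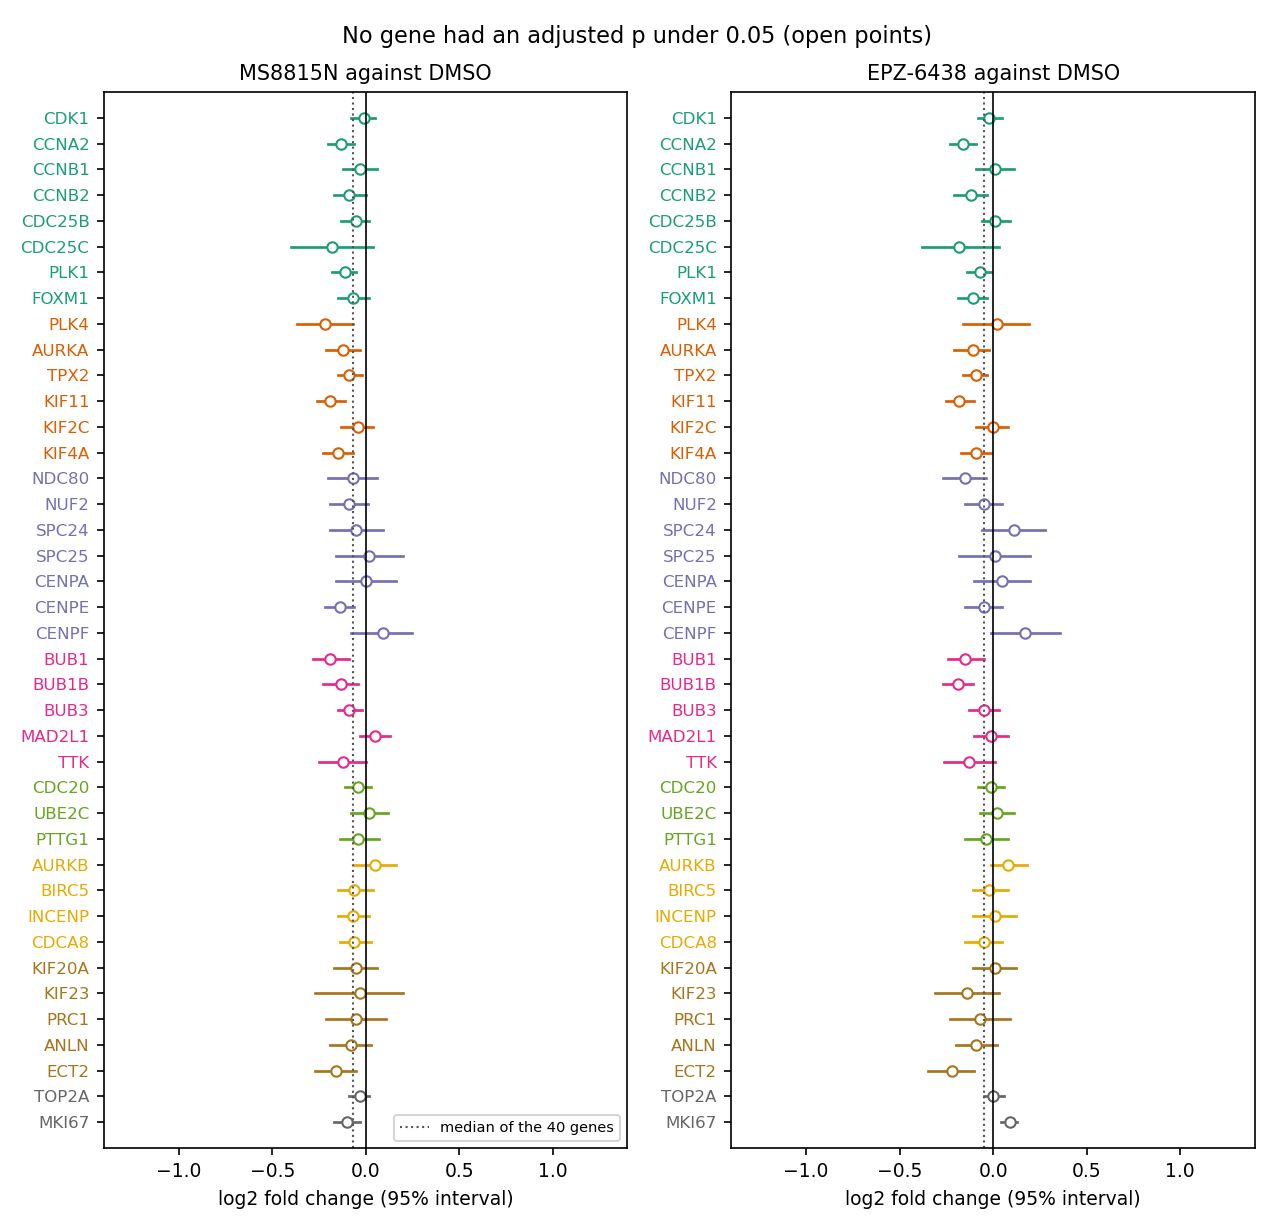
Log2 fold changes with 95% intervals of MS8815N (left) and EPZ-6438 (right) against DMSO, on an axis of the same length as that of the MS8815 plot, with 2 libraries a group and the median of the 40 genes dotted (-0.07 and -0.05). All estimates lie between -0.22 and 0.17 and none was called; under quantile normalisation the median for EPZ-6438 turns to 0.01.

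MS8815N against EPZ-6438, the pair without a degrader, gave none of the 40 called, with 0.172% of all genes called. An unadjusted p under 0.05 was found for 2 of the 40, as for 1070 of all 17467 genes. The median of the 40 was -0.02, and 0.02 under pan-B scaling. MKI67 had 24422 and 25954 counts in MS8815N, against 28613 and 28728 counts in EPZ-6438, a log2 difference of -0.19 (95% interval -0.28 to -0.10; limma adjusted p = 0.249). PLK4 had 1765 and 1950 counts in MS8815N and 2040 and 2328 counts in EPZ-6438 (-0.23, -0.42 to -0.04; adjusted p = 0.697). For CDK1 the difference was 0.00 (-0.07 to 0.07), for PLK1 -0.04 (-0.11 to 0.03) and for ANLN 0.01 (-0.11 to 0.14). For KIF23 the interval was wider (0.11, -0.20 to 0.42), at 1583 and 1293 counts in MS8815N and 1271 and 1387 counts in EPZ-6438.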

How the data were processed

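RNA sequencing was done in 8 libraries of SUDHL6 cells, 2 per group. STAR 2.4.2, Salmon and the GRCh38 build are listed in the submitters' processing notes; further steps are not given in the sources used here. The deposited values are log2-type values from the variance-stabilising transform of DESeq2, per the file names, which the authors made in 3 tables, each with the libraries of 1 compound and the same 2 DMSO libraries. The transform was inverted to normalised counts. The DMSO libraries of different tables then differed only by a constant per gene and a constant per library (largest deviation 7e-11 on the log2 scale over 17219 genes). The tables were joined on the scale of the MS8815N table. For 10 genes of each joined table, at 0 in the DMSO libraries, the median constant was used.

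Depth was estimated from the spacing of low values, of which 47.5% to 65.7% fell within 0.02 of a whole read, against 4.0% by chance. Each compound was tested against DMSO within its table by limma 3.58.1 with trend (R 4.3.3) on the deposited log2-type values, two-sided, adjusted by Benjamini-Hochberg across each whole table, at a threshold of 0.05. Log2 fold changes, SE and 95% intervals came from limma on log2(normalised count + 1), which understates the change of low genes. Compounds were compared by the same fit over the 8 joined libraries. Counts were divided by the exon length of GENCODE 29 basic transcripts for levels per kilobase, and the authors' gene model may differ. Promoters are those of RefSeq on GRCh38.p14. The fits were run on simulated counts with known changes in a small share of genes and the same spread in every group. The MS8815 libraries had a wider spread and far more genes called, so that run cannot show how well the MS8815 calls hold.

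The members and gene lists were chosen with earlier results of these data known. Values in every library are given, in each comparison with DMSO, for the 8 members with the smallest p, for called members against the main direction and for their paired partners; from each other list, up to 4 called genes with the smallest p may be named, and the library values of CDC25C, BUB1B and BIRC5 against DMSO in MS8815, and CIT, CDC14B and CCNA1, were chosen after their values were seen. Alternatives were other scalings (quantile, pan-B genes), a filter on low levels, no trend, log2 counts, other pseudocounts (0.5 and 5), a replicate block, the joined fit and each library left out.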

Additional observations from a re-analysis of the deposited data

How the results depend on the processing

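In MS8815 against DMSO, the pan-B scaling called 13598 genes and turned the median of the 40 genes (the members) to 0.52, with 0 members lower and 37 higher; its log2 values of single members were CDK1 0.10, CCNA2 0.14, CCNB2 0.29, CDC25B 0.59, CDC25C 0.73, FOXM1 0.65, PLK4 0.68, AURKA 0.72, TPX2 0.68, KIF11 0.31, KIF2C 0.53, KIF4A 0.51, NDC80 0.45, NUF2 0.40, SPC24 0.65, SPC25 0.31, CENPA 0.35, CENPE 0.27, CENPF 0.66, BUB1 0.43, BUB1B 0.33, BUB3 0.63, MAD2L1 0.55, TTK 0.52, CDC20 0.20, UBE2C 0.59, PTTG1 0.36, AURKB 0.45, BIRC5 0.66, INCENP 0.48, CDCA8 0.41, KIF20A 0.88, KIF23 0.73, ECT2 0.88, TOP2A 0.57, MKI67 0.41. Quantile normalisation moved the member median to -0.31 and left FOXM1, PLK4, AURKA, TPX2, SPC24, CENPF, BUB3 and BIRC5 without a call, while CDC25C gained one (-0.67). The joined fit takes 1 spread for all groups and called 9326 of 17467 genes, 4917 lower and 4409 higher. It gave 36 members lower and 3 higher, with CDC25C, KIF20A and ECT2 gained. With each library left out, genes called ranged over 3583 to 8932, members lower over 24 to 33, members higher over 1 to 2 and the member median over -0.55 to -0.50. ANLN kept its call in every alternative run here, whereas CCNB1 and PRC1 lost theirs with a library left out; such a fit of 3 libraries assumes that the lone library varies like the other group.

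In EPZ-6438 against DMSO, genes called came to 13 under quantile normalisation (member median 0.01), 283 with the lower 50% of genes removed (3 members lower), 169 without trend (3 members lower, 1 higher), 25 on log2 counts, 13 and 26 with pseudocounts of 0.5 and 5, 0 in the joined fit and 0 with any library left out (member median -0.06 to -0.04), and the pan-B scaling gave a member median of -0.06. In MS8815N against DMSO, genes called came to 389 with the lower 50% of genes removed (2 members lower), 252 without trend (1 member lower, KIF11), 65 in the joined fit and 0 to 6 with a library left out (member median -0.08 to -0.07). Quantile normalisation gave a member median of -0.01 and pan-B scaling -0.04.

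In MS8815 against MS8815N, the pan-B scaling gave 13579 genes called, 0 members lower, 39 higher and a median of 0.54, quantile normalisation a median of -0.30, and the filter 5739 genes called. In MS8815 against EPZ-6438, the pan-B scaling gave 13614 genes called, 0 members lower, 39 higher and a median of 0.58, quantile normalisation a median of -0.32, the filter 5699 genes called, and libraries left out a median of -0.51 to -0.47. In MS8815N against EPZ-6438, genes called came to 17 under quantile normalisation, 4 without trend and 8 to 60 with a library left out, and the pan-B scaling gave a median of 0.02. The cause of these shifts was not tested; the filter tests fewer genes by construction.

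The replicate numbers mark nothing that the labels share between groups, and deviations of same-numbered libraries correlated at -0.024 to 0.283 across the 6 pairs of groups. With a replicate block, MS8815N against DMSO gave 353 genes called and 2 members lower (KIF11 and BUB1), EPZ-6438 against DMSO 10 genes and 0 members, and MS8815 against DMSO 8694 genes, 33 members lower and 3 higher, with the same member medians of -0.07, -0.05 and -0.52. The MS8815 libraries had the lowest depth, whose part in the results was not tested.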
